A study of Homo sapiens with 6 samples.

Results

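The genes examined here encode the cyclin-dependent kinase inhibitors, CDKN1A, CDKN1B, CDKN1C, CDKN2A, CDKN2B, CDKN2C, CDKN2D and CDKN3, in OVCAR8, an established line of human ovarian cancer cells labelled as wild type. The rule that picks them uses their symbols and no values, though the family was chosen with earlier results of these data known, and all 8 were found among the 38637 genes of the table. Polyadenylated RNA was sequenced from 3 samples of cells given DMSO, the solvent, and from 3 samples given pladienolide B, a small molecule that inhibits the splicing factor SF3B1, at 2 nM, both for 72 h. All samples came from 1 cell line, and the labels do not say whether the samples were separate cultures, so the p-values measure the spread between samples that may be technical. In RNA from whole cultures, fewer cells of a type and less RNA per cell cannot be told apart.

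Cyclin-dependent kinases drive the cell cycle when a cyclin is bound to them, and the inhibitors hold them back. The CIP/KIP proteins p21 (CDKN1A), p27 (CDKN1B) and p57 (CDKN1C) bind complexes of cyclin and kinase, mainly those of CDK2. The INK4 proteins p16 (CDKN2A), p15 (CDKN2B), p18 (CDKN2C) and p19 (CDKN2D) bind CDK4 and CDK6 and keep cyclin D from activating them, which leaves the retinoblastoma protein free to repress E2F. CDKN3 encodes KAP, a phosphatase that acts on CDK2, and its transcript is known to be high in dividing cells.

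Each sample had 22621338 to 26130882 reads on genes. The values below are adjusted reads, that is, reads after the authors' adjustment for library size. Against a chi-square per degree of freedom of 1.98 between DMSO replicates 1 and 3, DMSO replicate 2 gave 7.31 and 7.24 against them, and the pladienolide B samples gave 3.09 to 4.56 among themselves, so DMSO replicate 2 stood apart from its group. Among 12 markers of an ovarian epithelial cancer cell, KRT8 (40092 to 53035 adjusted reads), PAX8 (4011 to 4581) and EPCAM (431 to 513) were present in all samples. So were VIM (60442 to 69709) and CDH2 (3613 to 4858), whereas WT1, MUC16, CDH1 and KRT19 had at most 40 reads in any sample. With an adjusted p below 0.05 by limma, 3 of the 12 were higher and 4 lower, against 22.4% and 25.2% of all tested genes. On the log2 scale these were CDH1 (0.67), KRT18 (0.29) and KRT8 (0.27), and KRT7 (-0.64), MSLN (-0.44), CDH2 (-0.38) and VIM (-0.15). Among 12 markers of other cells, PTPRC, LYZ, HBB and ALB had at most 2 reads and CD3E had 0 reads in all 6 samples, while COL1A1 (5602 to 6902) and CD68 (1091 to 1590) were expressed. The 12 together summed to 7847 to 8266 adjusted reads in DMSO and 7196 to 7968 in pladienolide B. Of these, CD68 was called higher (0.41 on the log2 scale, adjusted p = 2.4e-05 by limma) and COL1A1 lower (-0.21, adjusted p = 0.0014 by limma), and their part in the results below was not tested.

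As shown in the plot of adjusted reads by sample, CDKN1A was higher in pladienolide B and 5 of the other inhibitor genes were lower. A gene was called when its adjusted p was below 0.05 by limma, with Benjamini-Hochberg adjustment over the 16178 genes tested. All 8 inhibitor genes passed the filter on low values. CDKN1A was called higher, against 22.4% of all tested genes called higher. CDKN1B, CDKN2B, CDKN2C, CDKN2D and CDKN3 were called lower, 5 of 8, against 25.2% of all tested genes. CDKN1C and CDKN2A were not called. In total 6 of 8 were called, where 47.6% of all tested genes were. The groups did not overlap for these 6 genes, as was the case for 55.3% of all tested genes. Without DMSO replicate 2 these 6 genes were still called, with log2 fold changes of 1.11 (CDKN1A), -0.44 (CDKN1B), -0.56 (CDKN2B), -0.81 (CDKN2C), -0.62 (CDKN2D) and -0.77 (CDKN3). The median log2 fold change of the 8 genes was -0.50, against -0.004 over all genes tested.

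**Figure D1:**
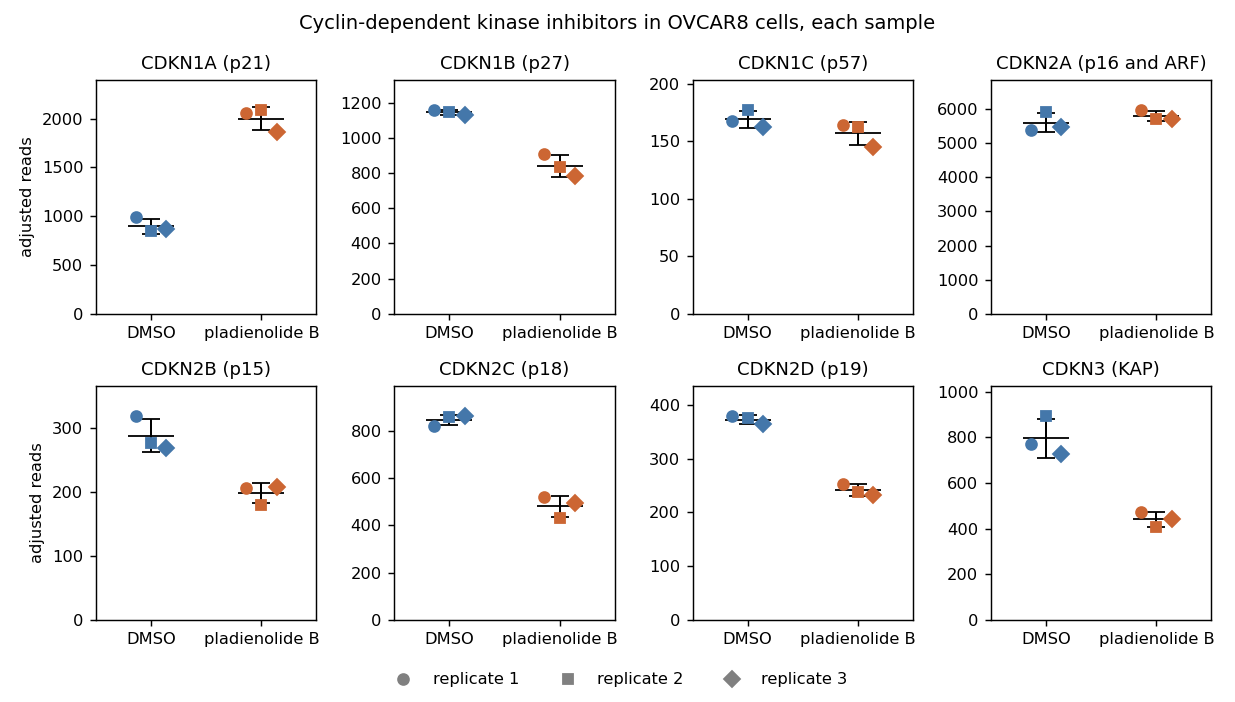
Adjusted reads (vertical axes, starting at 0 and scaled for each gene) of the 8 inhibitor genes in each DMSO sample (blue) and pladienolide B sample (orange), with the mean as a long horizontal line and the SD (n = 3) as bars. The symbol gives the replicate number, which does not pair the groups. CDKN1A sits between 845 and 987 in DMSO and between 1865 and 2087 in pladienolide B, and CDKN1B, CDKN2B, CDKN2C, CDKN2D and CDKN3 are lower in every pladienolide B sample than in any DMSO sample.

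The CIP/KIP genes went in different directions. CDKN1A encodes p21, known to be induced by DNA damage and to halt the cycle in G1, and lies at chr6:36676463-36687332 on the + strand. It had 987, 845 and 866 adjusted reads in DMSO replicates 1 to 3 and 2054, 2087 and 1865 in pladienolide B replicates 1 to 3. All pladienolide B samples were high, and the lowest of them was 1.89 times the highest DMSO sample. The mean went from 899 ± 77.0 to 2002 ± 120 (SD, n = 3 per group), 2.23-fold. The log2 fold change was 1.16 (standard error 0.06, 95% interval 1.02 to 1.29, adjusted p = 4.5e-10 by limma). It was the only inhibitor gene to rise at least 2-fold, while 1.95% of all tested genes were both called higher and 2-fold up, and 6.5% of the genes called higher rose by more. With any 1 sample left out it was 1.11 to 1.22.

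CDKN1B encodes p27, which holds cells in the quiescent state and is degraded when they enter the cycle, and lies at chr12:12717368-12722369 on the + strand. It had 1159, 1150 and 1133 adjusted reads in the DMSO samples and 909, 834 and 787 in the pladienolide B samples. The DMSO samples lay close together, and all pladienolide B samples were below them. The mean went from 1147 ± 13.1 to 843 ± 61.9 (SD, n = 3 per group), 73.5% of the DMSO level. This is a log2 fold change of -0.45 (95% interval -0.58 to -0.32, standard error 0.06, adjusted p = 1.5e-05 by limma).

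CDKN1C, an imprinted gene expressed from the maternal copy, encodes p57 and lies at chr11:2883218-2885775 on the - strand. It had 168, 177 and 162 adjusted reads in DMSO and 164, 162 and 145 in pladienolide B, and the groups overlapped. Its log2 fold change was -0.11 (95% interval -0.35 to 0.14, adjusted p = 0.47 by limma).

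To compare CDKN1A with CDKN1B within each sample, the log2 ratio of their adjusted reads was taken. It was -0.23, -0.44 and -0.39 in the DMSO samples and 1.17, 1.32 and 1.24 in the pladienolide B samples. CDKN1B was thus the more abundant of the pair in reads in every DMSO sample and CDKN1A in every pladienolide B sample. The difference of the means was 1.60 (exact permutation test, two-sided, p = 0.1, the smallest p that 3 against 3 samples allow). Since neither gene had overlapping groups and they moved in opposite directions, their ratio had to separate the groups. The test therefore adds no support to the values above.

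The sequences before the starts of CDKN1A and CDKN1B, of the same family, and of CDKN2C, the INK4 gene with the largest fall, are shown because these genes went in opposite directions. Each is the 250 bases before the RefSeq start on GRCh38.p14, with capitals at matches to GGGCGG (the GC box), CCAAT and CACGTG (the E-box) on either strand. They cover chr6:36678464-36678713 on the + strand for CDKN1A, chr12:12717118-12717367 on the + strand for CDKN1B and chr1:50969995-50970244 on the + strand for CDKN2C, at the start of its canonical transcript.
CDKN1A: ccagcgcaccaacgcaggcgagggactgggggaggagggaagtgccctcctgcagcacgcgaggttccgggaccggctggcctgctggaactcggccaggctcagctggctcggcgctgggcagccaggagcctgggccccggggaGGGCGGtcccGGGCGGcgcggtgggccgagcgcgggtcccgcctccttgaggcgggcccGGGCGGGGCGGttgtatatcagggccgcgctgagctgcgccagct
CDKN1B: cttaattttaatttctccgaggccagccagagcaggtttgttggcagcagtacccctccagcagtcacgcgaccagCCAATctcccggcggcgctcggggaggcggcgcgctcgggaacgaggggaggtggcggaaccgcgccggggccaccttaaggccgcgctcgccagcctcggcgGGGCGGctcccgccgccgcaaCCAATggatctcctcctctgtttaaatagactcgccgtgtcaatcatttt
CDKN2C: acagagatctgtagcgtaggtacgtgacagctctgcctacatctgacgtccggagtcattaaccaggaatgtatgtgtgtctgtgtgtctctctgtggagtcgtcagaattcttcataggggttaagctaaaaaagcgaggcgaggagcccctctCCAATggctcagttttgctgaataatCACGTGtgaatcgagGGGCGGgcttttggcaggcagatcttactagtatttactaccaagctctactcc
The CDKN1A window held 4 GC boxes, 104, 94, 45 and 40 bases before the start, of which the last 2 overlap, and no CCAAT. Its GC content was 76.4%, against a median of 58.0% over 35116 RefSeq promoter windows. Exons of DINOL reach into this window, and 4 of its bases lie in an exon of another CDKN1A transcript. The CDKN1B window held 1 GC box, 71 bases before the start, and CCAAT at 174 and 50. The CDKN2C window shown held 1 GC box at 54, CCAAT at 95 and an E-box at 69. The table holds 10 windows for 7 inhibitor genes, since CDKN2A has 2 starts and CDKN2C has 3. With 1 window per gene, at the start of its canonical transcript, 6 of 7 held a GC box, 4 held CCAAT, 1 held an E-box and none held TATAAA. Over all 10 windows, 7 held a GC box, 4 held CCAAT, 2 held an E-box and none held TATAAA, against 42.6%, 32.0%, 6.34% and 10.7% of all RefSeq windows. Both windows with an E-box belonged to CDKN2C, which supplied 3 of the 10 windows. CCAAT was in the canonical windows of CDKN1B, CDKN2C, CDKN2D and CDKN3 and not in those of CDKN1A, CDKN2A and CDKN2B. A link between these letters and the changes was not tested. The other 2 CDKN2C windows held no CCAAT, and that at the gene start in the deposited table held 5 GC boxes with a GC content of 77.2%. TTTGAA or TTCGAA, a core of the cell cycle genes homology region, was in 1 window, that of CDKN3, 170 bases before its start, and in 14.3% of all windows. Of the 250 bases of this CDKN3 window, 158 lie in exons of other CDKN3 transcripts, so the distance depends on the start used. The E2F letters TTTCGCGC, TTTGGCGC and TTTCCCGC were in none of the 10 and in 2.32% of all windows. A match is a run of letters and does not show that a factor binds there.

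Among the INK4 genes, CDKN2C, CDKN2D and CDKN2B fell and CDKN2A, by far the highest of them, was not called. CDKN2A lies at chr9:21967752-21995324 on the - strand and encodes p16 and, from another first exon, ARF, which binds MDM2. A value per gene does not separate the transcripts. It had 5403, 5925 and 5479 adjusted reads in DMSO and 5970, 5725 and 5711 in pladienolide B, and the groups overlapped, with DMSO replicate 2 the high sample of its group. The log2 fold change was 0.05 (95% interval -0.04 to 0.14, adjusted p = 0.36 by limma). Without DMSO replicate 2 it was 0.09 and passed the threshold, with an adjusted p of 0.036 by limma, and over the other alternatives the adjusted p lay between 0.17 and 0.72.

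CDKN2C encodes p18 and lies at chr1:50968706-50974634 on the + strand. It had 821, 856 and 860 adjusted reads in the DMSO samples and 518, 432 and 494 in the pladienolide B samples, with a wide gap between the groups. The mean went from 846 ± 21.7 to 481 ± 44.3 (SD, n = 3 per group), 56.9% of the DMSO level. On the log2 scale the difference was -0.82 (standard error 0.07, 95% interval -0.97 to -0.66, adjusted p = 1.4e-07 by limma). It was the largest fall among the INK4 genes in this table, and 13.9% of the genes called lower fell by more.

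CDKN2D encodes p19, the INK4 protein distinct from the ARF product of CDKN2A, and lies at chr19:10566460-10568979 on the - strand. It had 379, 376 and 364 adjusted reads in DMSO and 253, 239 and 233 in pladienolide B. Both groups were tight and did not overlap. The mean went from 373 ± 8.25 to 242 ± 10.5 (SD, n = 3 per group), and the log2 fold change was -0.63 (standard error 0.09, 95% interval -0.81 to -0.44, adjusted p = 1.8e-05 by limma).

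CDKN2B encodes p15, an inhibitor known to be induced by TGF-beta, and lies next to CDKN2A at chr9:22002903-22009313 on the - strand. It had 318, 276 and 269 adjusted reads in DMSO and 206, 180 and 207 in pladienolide B. The pladienolide B samples were all lower, though DMSO replicate 1 was higher than the rest of its group. The mean went from 288 ± 26.3 to 198 ± 15.7 (SD, n = 3 per group), 68.8% of the DMSO level. On the log2 scale the difference was -0.54 (standard error 0.11, 95% interval -0.76 to -0.31, adjusted p = 0.0005 by limma).

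CDKN2A and CDKN2B, 7.58 kb apart, are close copies in part, and reads from what they share could be assigned to either gene. Of all windows of 75 bases in the canonical GENCODE transcript of CDKN2B, 6 of 3779 (0.159%) were also found in the CDKN2A transcript, and of windows of 50 bases 31 of 3804 (0.815%). None of the windows of 100 bases was. The log2 ratio of CDKN2B to CDKN2A was -4.08, -4.42 and -4.34 in DMSO and -4.85, -4.99 and -4.78 in pladienolide B. It was lower in all pladienolide B samples, by 0.59 between the means (-4.28 and -4.87, exact permutation test, two-sided, p = 0.1, the smallest possible).

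CDKN2B-AS1 (ANRIL), a long noncoding RNA on the opposite strand known for its part in silencing this locus, also fell. It had 60.1, 74.6 and 68.1 adjusted reads in DMSO and 40.7, 45.9 and 50.1 in pladienolide B, so that its log2 fold change was -0.56 with a standard error of 0.19 (adjusted p = 0.024 by limma). The log2 ratio of CDKN2B to CDKN2B-AS1 was 2.08 ± 0.27 in DMSO and 2.10 ± 0.19 in pladienolide B (SD, n = 3 per group), a difference within the spread of the replicates (0.02, exact permutation test, two-sided, p = 1.0). CDKN2B lies in an intron of CDKN2B-AS1 and shares 0 exonic bases with it in GENCODE. Exons of CDKN2A that lie around its ARF start do overlap exons of CDKN2B-AS1, over 593 of 3885 exonic bases (15.3%), and whether the reads were counted by strand is not given in the sources used here. CDKN2A-DT, whose position also overlaps that of CDKN2A, had at most 5 reads.

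**Figure D2:**
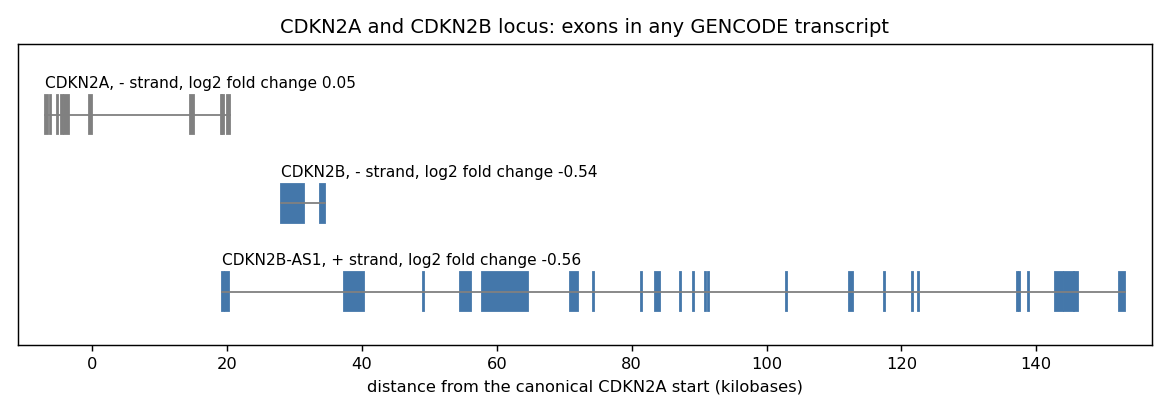
The CDKN2A and CDKN2B locus, with distance from the start of the canonical CDKN2A transcript in kilobases on the horizontal axis, exons of any GENCODE transcript as boxes and introns as lines. Blue genes were called lower and the gray gene was not called, and log2 fold changes are written above each gene. CDKN2B (-0.54) lies inside an intron of CDKN2B-AS1 (-0.56), and CDKN2A (0.05) overlaps the start of CDKN2B-AS1.

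CDKN3 had the lowest fold change of the 8 genes, with an interval that overlaps that of CDKN2C. It encodes KAP and lies at chr14:54396873-54420218 on the + strand. It had 772, 892 and 726 adjusted reads in DMSO and 474, 406 and 441 in pladienolide B, and DMSO replicate 2 was the highest sample. The mean went from 797 ± 85.6 to 440 ± 33.9 (SD, n = 3 per group), 55.3% of the DMSO level. The log2 fold change was -0.85 (standard error 0.08, 95% interval -1.03 to -0.68, adjusted p = 3.4e-07 by limma). Without DMSO replicate 2 it was -0.77, and 12.5% of the genes called lower fell by more than CDKN3.

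**Figure D3:**
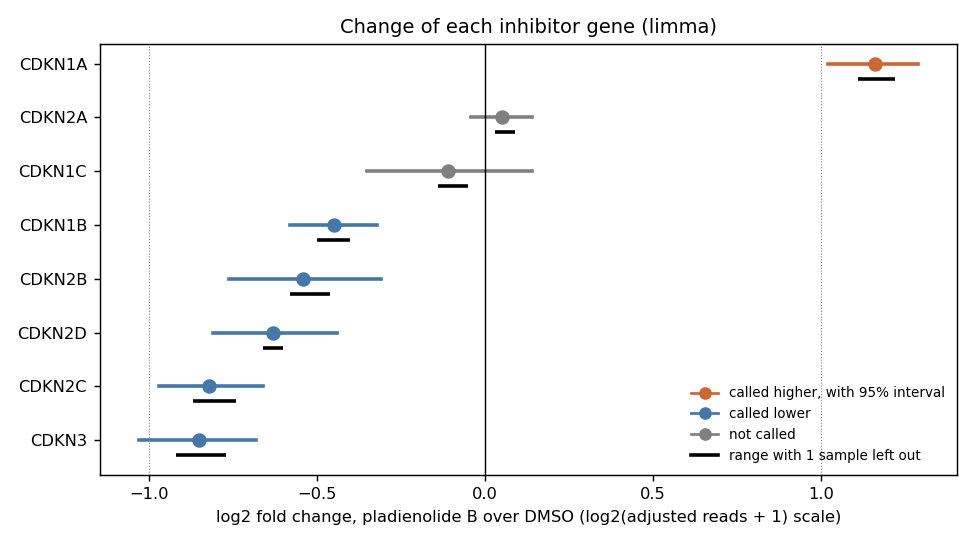
Log2 fold change of each inhibitor gene, pladienolide B against DMSO, on the log2(adjusted reads + 1) scale (horizontal axis), with 95% intervals from limma as lines around the points and, below each, the range of the value with 1 sample left out in black. Dotted lines mark 2-fold. CDKN1A (1.16) lies alone on the right and 5 genes lie on the left, from CDKN1B (-0.45) to CDKN3 (-0.85).

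To compare levels between genes, adjusted reads were divided by the length of the canonical GENCODE transcript and scaled to 1000000 adjusted reads per sample. On this scale CDKN2A had the highest mean level in both groups, 231 ± 8.3 in DMSO and 245 ± 4.9 in pladienolide B (SD, n = 3 per group). In DMSO it was followed by CDKN3 (38.2 ± 3.6) and CDKN2C (34.3 ± 0.83), whose samples overlapped in level, then by CDKN1B (19.2 ± 0.32) and CDKN1A (17.1 ± 1.6), whose samples also came within their spread of each other. CDKN2D (10.6 ± 0.24), CDKN1C (3.85 ± 0.12) and CDKN2B (3.01 ± 0.29) were lowest. In pladienolide B the level of CDKN1A was 39.1 ± 2.2, above those of CDKN3 (21.6 ± 1.6) and CDKN2C (20.0 ± 1.8), which overlapped. CDKN1B (14.5 ± 0.99), CDKN2D (7.01 ± 0.27), CDKN1C (3.66 ± 0.22) and CDKN2B (2.12 ± 0.17) followed without overlap. CDKN1A thus moved from place 5 to place 2 in this order, and from place 3 to place 2 when all exons of each gene were counted in its length.

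The make-up of each family changed with these levels. CDKN1A made up 44.8%, 40.9% and 42.1% of the summed CIP/KIP level per length in the DMSO samples and 67.4%, 69.3% and 68.3% in the pladienolide B samples. The share of CDKN1B went from 47.8% ± 1.5 to 25.3% ± 0.95 (SD, n = 3 per group). The summed CIP/KIP level was 40.2 ± 1.9 in DMSO and 57.2 ± 3.2 in pladienolide B. The sum of CDKN2B, CDKN2C and CDKN2D was 47.7, 47.4 and 48.4 in the DMSO samples and 30.9, 26.9 and 29.6 in the pladienolide B samples. With CDKN2A included, the INK4 sum was 279 ± 8.0 and 274 ± 6.5, with overlapping samples, and CDKN2A made up 82.8% ± 0.60 and 89.4% ± 0.55 of it. These sums are given without a test, and they depend on the length used. With all exons of each gene in its length, a choice added after the data had been seen, CDKN1A made up 60.9% ± 2.1 of the CIP/KIP level in DMSO and 81.2% ± 0.54 in pladienolide B, so that it was the main member in both groups, and CDKN1B made up 25.2% ± 1.1 and 11.1% ± 0.50 (SD, n = 3 per group). On that length the DMSO samples had an INK4 sum of 81.1 to 84.4 and the pladienolide B samples one of 75.4 to 79.2, which do not overlap.

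**Figure D4:**
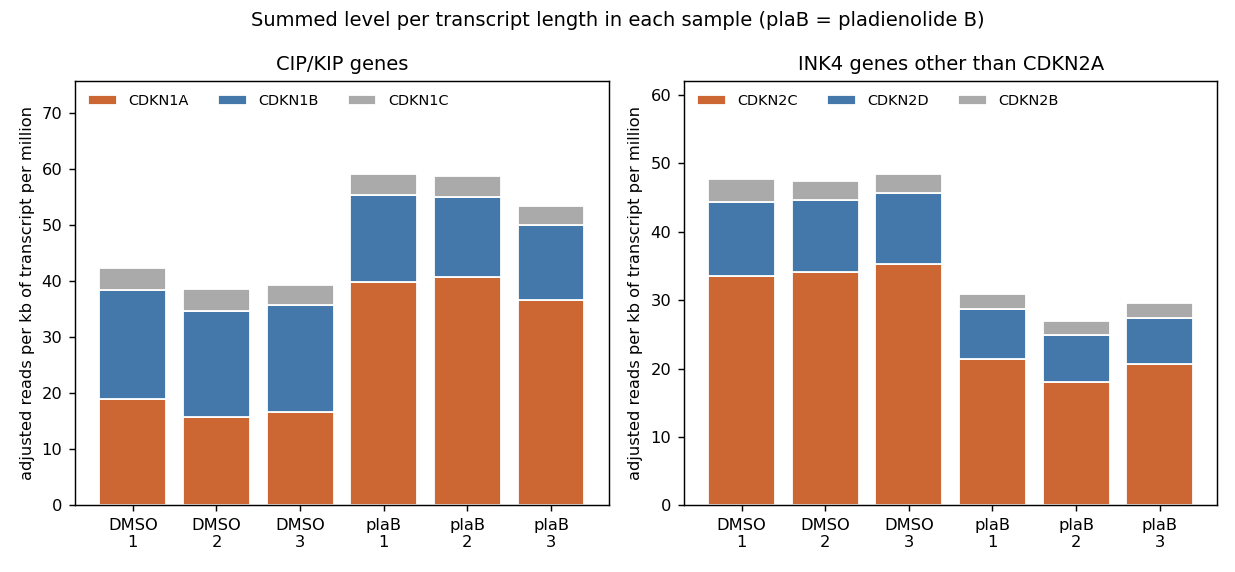
Adjusted reads per kilobase of canonical transcript, scaled to 1000000 per sample (vertical axes, starting at 0) in each sample, stacked by gene, for the CIP/KIP genes (left) and the INK4 genes other than CDKN2A (right). The CIP/KIP sum lies between 38.7 and 42.3 in DMSO and between 53.5 and 59.2 in pladienolide B with more of it from CDKN1A, and the INK4 sum without CDKN2A is lower in all 3 pladienolide B samples.

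The genes that the inhibitors act on, and those that act on them, were described with 5 hand-written lists. The counts below stand against 22.4% of all tested genes called higher and 25.2% called lower, and a count near these shares is no result about a list. Of 21 cyclins, cyclin-dependent kinases and their direct regulators, all tested, 5 were called higher and 9 lower, with a median log2 fold change of -0.16. The G1 cyclins CCND1 (0.54, adjusted p = 1.6e-07 by limma) and CCNE1 (0.43, adjusted p = 1.2e-05 by limma) had the largest rises. CCND1, the partner of CDK4 and CDK6, had 13195, 15193 and 13245 adjusted reads in DMSO and 19990, 20128 and 20112 in pladienolide B. The cyclins of S phase and mitosis, CCNA2 (-0.63, adjusted p = 4.6e-08 by limma) and CCNB1 (-0.62, adjusted p = 4.9e-07 by limma), had the largest falls. Of the kinases the INK4 proteins bind, CDK6 fell by 0.39 on the log2 scale (adjusted p = 5.5e-06 by limma) and CDK4, at 0.10, was not called (adjusted p = 0.055 by limma). CDK2, bound by the CIP/KIP proteins, fell by 0.16 on the log2 scale (adjusted p = 0.0039 by limma). These 3 kinases were named for their binding to the inhibitors after their values were seen.

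Of 19 genes of the RB, E2F and DREAM proteins, which repress and activate cell cycle genes downstream of the kinases, 6 were called higher and 7 lower, with a median of -0.01. E2F8 (-1.06, adjusted p = 5.0e-07 by limma), an atypical E2F that represses, was the only gene of the list with a 2-fold change. It had 268, 274 and 293 adjusted reads in DMSO and 129, 128 and 141 in pladienolide B. E2F2, an activator, had a log2 fold change of -0.99, while E2F7 (0.50) and E2F6 (0.40), both repressors, were called higher. E2F7 and E2F8, which are closely related, thus moved in opposite directions. The activators did not move together either. E2F3 was called higher (0.32, adjusted p = 2.8e-05 by limma) and E2F1 was not called (-0.01), both named after their values were seen.

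Genes that act on the inhibitor proteins or their transcription were counted in the same way. Of 15 genes in the hand-written list for degradation of the inhibitors, 3 were called higher and 8 lower (median -0.19). Whether each of them, FBXW7 included, acts on an inhibitor in these cells was not tested. The largest falls were those of CKS1B (-0.49), the cofactor with which SKP2 recognizes p27, and RNF123 (-0.41), a ligase for p27 in G1. The largest rises were those of FBXW7 (0.32) and PSME3 (0.22), the latter a proteasome activator known to act on p21. Of 27 regulators of inhibitor transcription, 26 were tested, 8 were called higher and 10 lower (median 0.02), and 5 were called higher by limma without its variance trend. SMAD3, which carries TGF-beta signals, and FOXO1 each had a log2 fold change of 0.46, and CBX7, a Polycomb protein that represses the CDKN2A locus, had one of -0.85. CBX7 had 252, 202 and 256 adjusted reads in DMSO and 117, 141 and 134 in pladienolide B.

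The pooled list of genes of S phase and of G2 and mitosis, with which CDKN3 is usually expressed, was mostly lower. Of 30 tested, 22 were called lower and 1 higher, with a median of -0.38. Their summed level was 151034 to 162357 adjusted reads in DMSO and 119579 to 129365 in pladienolide B, so it moved with the fall of CDKN3, and its part in that fall was not tested. KIF20A, a kinesin of cytokinesis, was the only gene of this list that fell by more than CDKN3, from 1973, 2056 and 2063 adjusted reads in DMSO to 970, 838 and 969 in pladienolide B (log2 fold change -1.14, adjusted p = 2.5e-10 by limma). MKI67, the Ki-67 marker of dividing cells, fell by 0.82 on the log2 scale (adjusted p = 2.5e-10 by limma). MCM2, a subunit of the replication helicase, rose by 0.22 on the log2 scale (adjusted p = 0.00073 by limma). The 7 genes not called were MCM3, MCM4, MCM6, CDC6 and CDT1 of S phase and BUB1 and CDC20 of mitosis. They were named after their values were seen. The genes of S phase were thus mixed, and the pooled median does not describe them alone.

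**Figure D5:**
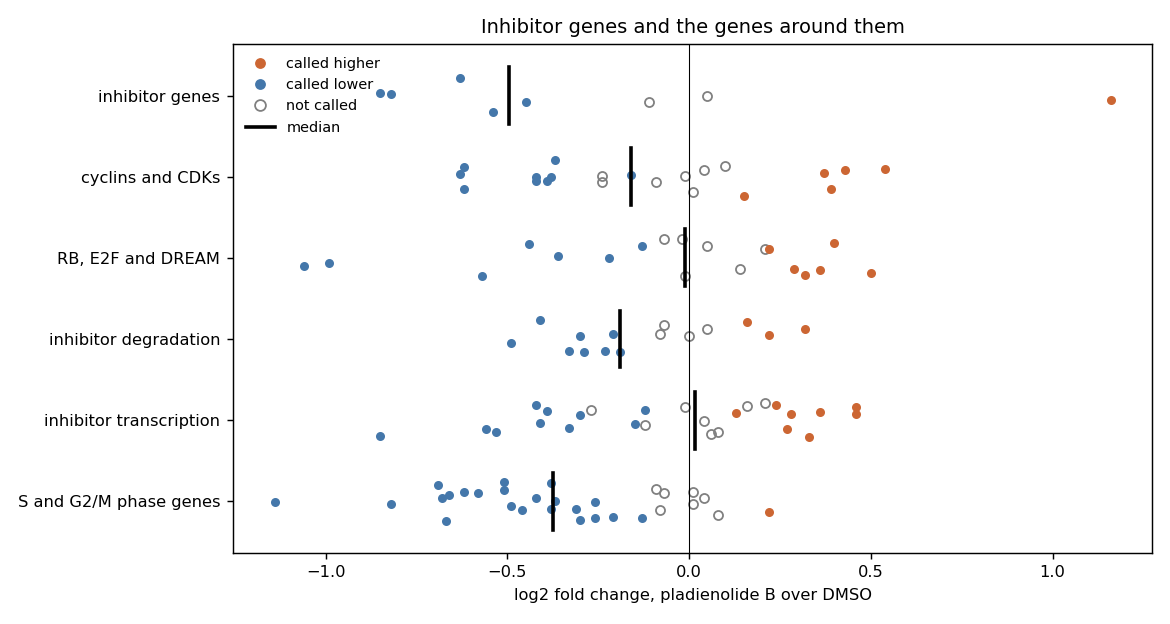
Log2 fold change, pladienolide B against DMSO (horizontal axis) for each tested gene of the inhibitor genes and of the 5 lists (rows), with genes called higher in orange, called lower in blue and not called as open circles. Vertical black bars are medians, -0.38 for the S and G2/M phase genes and between -0.19 and 0.02 for the other 4 lists, and CDKN1A (1.16) lies to the right of every listed gene.

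The genes within 50 kb of the inhibitor genes were examined next. There were 26 of them besides the inhibitor genes themselves, of which 14 were tested, 4 were called higher and 5 lower, against 22.4% and 25.2% of all tested genes. Around CDKN1A, RAB44 and the noncoding RNAs DINOL, PANDAR and LOC105375038 had at most 5 reads in any sample, so no neighbour was tested. DINOL lies on the opposite strand and shares 146 exonic bases with CDKN1A. Near CDKN1B, GPR19 (-0.66, adjusted p = 0.00037 by limma) and the noncoding LOC105369663 (-0.57, adjusted p = 0.00049 by limma), whose positions in the table overlap that of CDKN1B on the opposite strand, fell, and APOLD1 (0.41) rose. Their means were 194 and 188 adjusted reads, under those of CDKN1B. Reads from overlapping exons cannot be told apart without strand. In GENCODE the exons of CDKN1B share no bases with those of another gene. The gene models used for counting are not given, so these values, and that of CDKN1B, stay uncertain to that extent. MIR613 and LOC107984129, also near CDKN1B, had at most 3 reads.

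Near CDKN1C, PHLDA2, an imprinted gene of the same cluster, rose by 0.48 on the log2 scale (adjusted p = 5.0e-06 by limma), whereas KCNQ1 (0.95, adjusted p = 0.066 by limma, mean of 12.8 adjusted reads) and SLC22A18 (-0.43, adjusted p = 0.068 by limma) were not called. KCNQ1DN, KCNQ1-AS1 and SLC22A18AS had at most 10 reads. Near CDKN2C, FAF1 was not called (0.03, adjusted p = 0.56 by limma), and LOC112268262 had at most 3 reads. In GENCODE, CDKN2C shares 617 of its 3018 exonic bases over all transcripts (20.4%) with ENSG00000290102 on the opposite strand. It was the largest such overlap among the 8 genes. None of these bases lies in the canonical CDKN2C transcript, and a share of bases is not a share of reads. The effect of this overlap on the values of CDKN2C was not tested. Near CDKN2D, AP1M2 (-0.53) and SLC44A2 (-0.25) were called lower, ATG4D (0.29) and S1PR5 (0.22) higher, KRI1 (0.06) was not called, and MIR1238 had 0 reads. Near CDKN3, CNIH1 was not called (0.12, adjusted p = 0.053 by limma).

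The genes most like CDKN1A over the 6 samples were found by the root-mean-square difference of log2(value + 1), centred on each gene's DMSO mean, among 13210 genes with a mean of at least 50. They were NEDD4L (0.059), a ubiquitin ligase, then SOX7 (0.081), LRRC15 (0.091), ID3 (0.093) and ITGA2 (0.10). NEDD4L went from a mean of 1946 to 4196 adjusted reads, and the log2 fold changes of the 5 genes lay between 1.11 and 1.17. They were chosen for this likeness, so it is given as a description.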

How the data were processed

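RNA sequencing of OVCAR8 cells in 6 samples was analysed, 3 with DMSO and 3 with pladienolide B. Per the study's methods, reads were trimmed and aligned with hisat2 to hg38. The submitters' processing notes name hg19, HISAT2, HTSeq 0.12.4 and DESeq2. Positions in the table overlapped those of GRCh38.p14 for 99.8% of 35922 symbols, so hg38 was used. Whether counting used strand, and which gene models, is not given in the sources used here.

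The authors deposited 1 adjusted signal per gene and sample. It matches the quantile adjustment of counts in edgeR (common dispersion 0.0027), and inverting the adjustment gave whole reads, within 0.02, for 100% of values of 10 or more and 99.997% of values from 0.3 to 10. The columns of log2 fold change, p-value and q-value that the authors deposited were not used.

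The main test was limma 3.58.1 with a variance trend on log2(adjusted signal + 1), two-sided, with Benjamini-Hochberg adjustment over the 16178 genes that passed filterByExpr of edgeR 4.0.16 (at least 10 in 3 samples and 15 in total). The scale understates changes of low genes. The scripts were tested on simulated data. On the recovered reads, edgeR's quasi-likelihood test called 7738 genes. Alternatives were edgeR with 3 scalings, DESeq2 1.42.0, limma without trend or with median-ratio scaling, a pseudocount of 0.1, other filters, a replicate block and each sample left out. Exon lengths (canonical transcripts, with all exons as an alternative added after the data had been seen) came from GENCODE 44 and promoters from RefSeq. CDKN1C is missing from the promoter table.

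The inhibitor genes and lists were chosen with earlier results of these data known. Named genes are the 8 inhibitor genes, in each list the genes called at 2-fold or more and the 2 largest rises and 2 largest falls called, all neighbours within 50 kb, and the 5 genes most like an inhibitor gene called at 2-fold or more, with a mean of at least 50. Exceptions are named in the text. Some planned results are not reported here.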

Additional observations from a re-analysis of the deposited data

How the results depend on the processing

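For the 8 inhibitor genes, 127 of 128 values under 16 alternatives kept their direction and their side of the threshold, and none reversed. The exception was CDKN2A, 0.03 to 0.09 with each sample left out, called only without DMSO replicate 2. Hence 6 inhibitor genes were called, or 6 to 7 with a sample left out. Among all genes, 6381 (limma without variance trend) to 7755 were called with other tools, filters and scalings and 6568 to 7836 with a sample left out, against 7695; DESeq2 called 6985, of which 6957 were shared. Without the variance trend, 5 rather than 8 regulators of inhibitor transcription were called higher, and the cause was not tested. The replicate numbers do not pair the samples (same-number correlations of deviations -0.0183, -0.0175 and 0.00261), and with a replicate block 7349 genes and the same number of inhibitor genes, 6, were called. Depth limits CDKN2B-AS1, with 40.7 to 74.6 adjusted reads.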

Other observations

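CDKN2AIP and CDKN2AIPNL, which are named for binding to the ARF product of CDKN2A or for likeness to a gene that does, are not inhibitors and were looked up after the values had been seen. CDKN2AIPNL, on chromosome 5, had 616, 547 and 583 adjusted reads in DMSO and 330, 244 and 291 in pladienolide B. All pladienolide B samples were below the DMSO samples, and the log2 fold change was -1.02 with a standard error of 0.10 (adjusted p = 3.2e-07 by limma), and -1.12 to -0.91 with 1 sample left out. CDKN2AIP, on chromosome 4, had 463, 502 and 426 adjusted reads in DMSO and 501, 464 and 518 in pladienolide B, which overlap (0.09 on the log2 scale, adjusted p = 0.36 by limma).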
